A study of Mus musculus with 8 samples.

Results

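The small leucine-rich proteoglycans are secreted matrix proteins built from leucine-rich repeats, and the 8 described here are Dcn, Bgn, Lum, Fmod, Ogn, Prelp, Optc and Aspn. They were taken as all probes of the array's value table whose annotated symbol is one of these genes, which gave 12 probes among 25697. RNA of the ascending aorta of 8 C57BL/6 mice was hybridised to Illumina expression arrays, 1 array per mouse. Of these, 5 had mucopolysaccharidosis VII (MPS VII), a lysosomal storage disease caused by deficiency of beta-glucuronidase, the product of Gusb. A group of 3 MPS VII mice, aged 7.8, 9.1 and 6 months, had a dilated ascending aorta, and 2 MPS VII mice, aged 5.8 and 6.7 months, did not. The normal group held 3 mice aged 5.8, 6.4 and 7 months. Males are dilated replicate 3, not dilated replicate 2 and normal replicate 2, and the other mice are females. The labels name neither the Gusb allele nor any treatment. Each title names a different mouse, so the spread between replicates is that between animals.

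These proteoglycans bind collagen fibrils and control how they assemble, and several also bind growth factors such as TGF-beta. Class I holds decorin (Dcn), biglycan (Bgn) and asporin (Aspn), of which the first pair carries chondroitin or dermatan sulphate chains. Class II holds fibromodulin (Fmod), lumican (Lum) and Prelp, the first pair of which can carry keratan sulphate, and class III holds osteoglycin (Ogn) and opticin (Optc). Beta-glucuronidase takes part in the lysosomal breakdown of chondroitin, dermatan and heparan sulphate, whereas keratan sulphate contains no glucuronic acid. Biglycan matters to this vessel: loss of BGN causes a syndrome with thoracic aortic aneurysm in humans, and mice without Bgn can die of aortic rupture.

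In MPS VII aorta the family did not move as a block. Optc and Ogn were lower in both MPS VII groups than in normal aorta, Fmod was higher in dilated aorta, and Dcn, Bgn, Prelp and Lum did not pass the test in either. In dilated minus normal, 2 of the 7 members that could be tested fell and 1 rose, where 10.4% and 9.82% of all 10040 genes did so. In MPS VII aorta without dilatation minus normal, 2 fell (5.17% of all genes) and 0 rose (4.84% of all genes). The median log2 difference of the 7 members was -0.12 in the dilated and -0.27 in the not dilated aortas, against -0.054 and -0.059 over all genes. With cyclic loess scaling more genes were called higher than lower in both comparisons, 1119 and 846 in dilated and 528 and 376 in not dilated aorta, against 986 and 1046, and 486 and 519, as reported. No member separated dilated from not dilated MPS VII aorta (0 of 7 called, with 0% of all genes called, and 0 of 7 without overlap, where 25% of all genes had none). Of the member counts, the number lower in not dilated aorta was 0 without not dilated replicate 1 and 1 without not dilated replicate 2 or any 1 normal replicate, and the number higher in dilated aorta was 0 without dilated replicate 1, dilated replicate 3, normal replicate 1 or normal replicate 3. A call here is an adjusted p under 0.05 in limma, and log2 differences are those of log2(intensity + 50), which understates the change of dim probes.

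**Figure D1:**
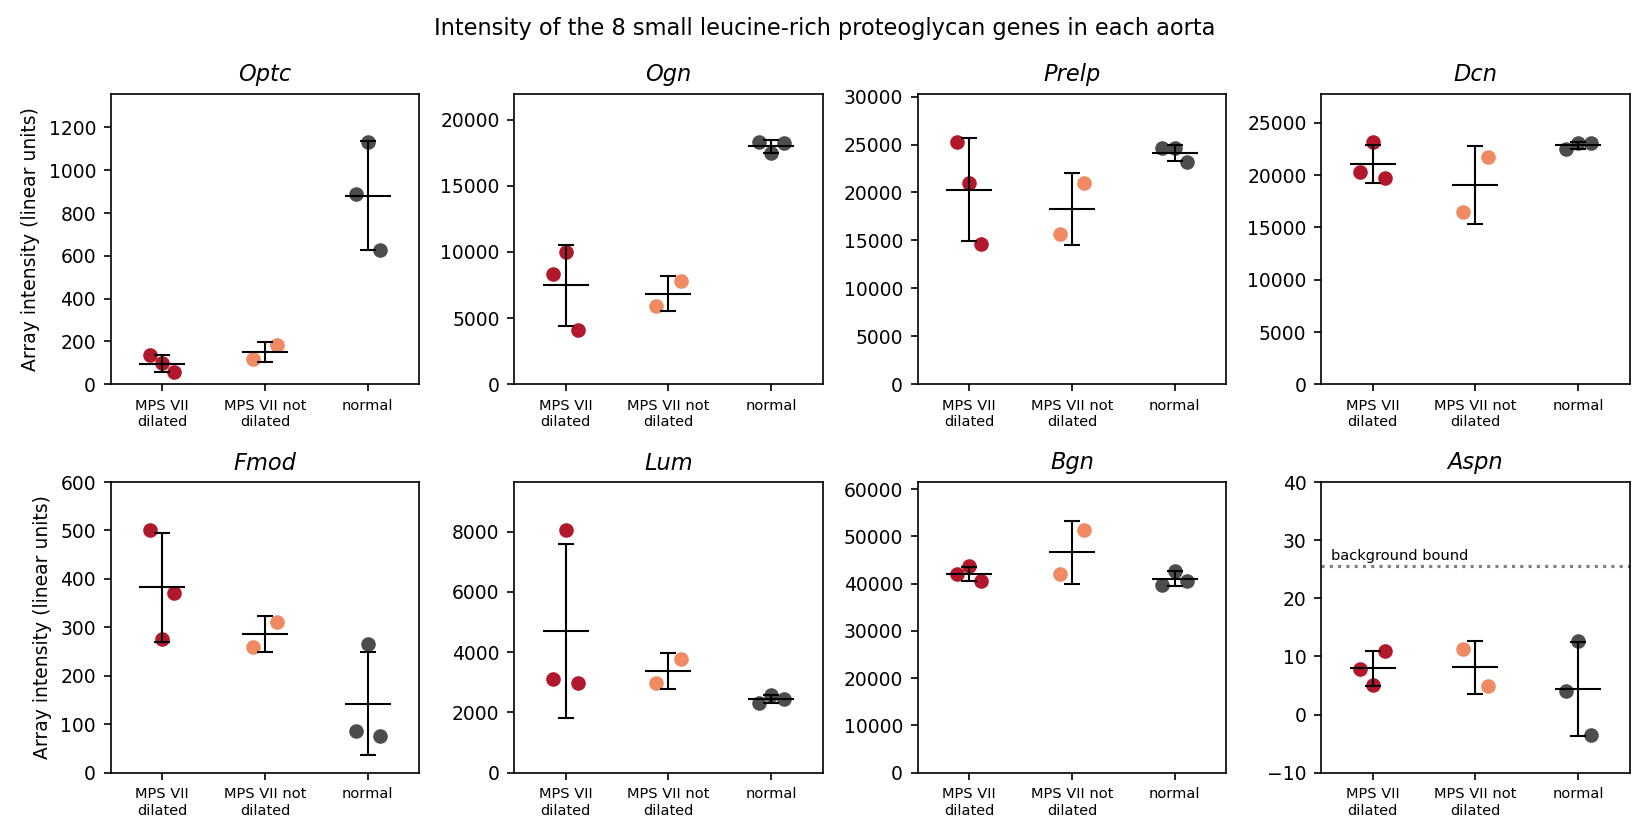
Intensity of each of the 8 genes (linear array units, brightest probe of each gene) in 3 dilated MPS VII, 2 not dilated MPS VII and 3 normal aortas. Points are mice, long bars are group means and whiskers are 1 SD; the 5 MPS VII points of Optc and of Ogn lie below all 3 normal points, and all Aspn points lie below the background bound of 25.6.

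The genes lie in clusters, and the bases before the start are shown for Optc, Prelp and Fmod and for the tested genes Ecm2, Omd and Ogn. In chromosome order, Optc, Prelp and Fmod follow each other on chromosome 1, Dcn, Lum, Kera and Epyc on chromosome 10, and Ecm2, Aspn, Omd and Ogn on chromosome 13, while Bgn lies on the X chromosome (RefSeq gene table, GRCm38.p6). RefSeq's promoter table of that build matched 6 of the 8 members (Optc, Prelp, Fmod, Aspn, Ogn and Bgn). The windows of Aspn, which was not tested, and of Bgn are not printed. The 250 bases before the annotated start are given 5′ to 3′ on the gene's strand. The windows are chr1:133908000-133908249 (minus strand) for Optc, chr1:133921402-133921651 (minus) for Prelp, chr1:134037004-134037253 (plus) for Fmod, chr13:49504560-49504809 (plus) for Ecm2, chr13:49582212-49582461 (plus) for Omd and chr13:49607765-49608014 (plus) for Ogn. Capitals mark matches on either strand to TATAAA, the GC box GGGCGG, the AP-1 pattern TGANTCA, the SMAD pattern CAGAC and the CArG box.
Optc: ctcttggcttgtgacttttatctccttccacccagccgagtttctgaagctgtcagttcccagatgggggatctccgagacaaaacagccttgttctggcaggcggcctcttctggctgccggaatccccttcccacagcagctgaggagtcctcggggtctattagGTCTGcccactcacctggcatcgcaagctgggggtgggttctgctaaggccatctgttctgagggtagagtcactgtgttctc
Prelp: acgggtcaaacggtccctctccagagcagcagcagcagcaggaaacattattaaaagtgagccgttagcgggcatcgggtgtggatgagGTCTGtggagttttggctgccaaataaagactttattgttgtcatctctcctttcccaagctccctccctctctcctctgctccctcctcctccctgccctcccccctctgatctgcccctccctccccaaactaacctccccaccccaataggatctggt
Fmod: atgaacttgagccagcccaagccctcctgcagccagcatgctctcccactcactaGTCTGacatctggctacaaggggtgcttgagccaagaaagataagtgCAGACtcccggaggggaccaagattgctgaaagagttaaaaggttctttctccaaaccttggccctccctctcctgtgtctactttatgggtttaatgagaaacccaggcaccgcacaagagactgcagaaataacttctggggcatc
Ecm2: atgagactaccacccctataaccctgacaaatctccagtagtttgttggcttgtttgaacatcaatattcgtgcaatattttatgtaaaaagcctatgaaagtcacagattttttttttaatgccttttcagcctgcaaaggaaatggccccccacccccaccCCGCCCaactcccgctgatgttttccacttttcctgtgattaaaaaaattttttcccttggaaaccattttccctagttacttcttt
Omd: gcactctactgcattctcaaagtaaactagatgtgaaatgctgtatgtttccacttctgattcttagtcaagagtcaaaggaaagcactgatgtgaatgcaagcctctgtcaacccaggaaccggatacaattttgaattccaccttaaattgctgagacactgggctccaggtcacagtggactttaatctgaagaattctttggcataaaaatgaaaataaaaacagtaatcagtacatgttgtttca
Ogn: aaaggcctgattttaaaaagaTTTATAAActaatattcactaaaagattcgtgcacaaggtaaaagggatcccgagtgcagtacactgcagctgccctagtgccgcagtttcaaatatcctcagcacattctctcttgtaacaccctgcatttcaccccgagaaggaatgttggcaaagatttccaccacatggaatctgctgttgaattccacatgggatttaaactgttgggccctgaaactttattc

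Among 32851 windows of that length, TATAAA was present in 12.4%, GGGCGG in 32.7%, TGANTCA in 6.75%, CAGAC in 42.2% and the CArG box in 1.47%. Of the windows printed, those of Optc and Prelp held 1 CAGAC each and that of Fmod held 2. Ecm2's window held 1 GC box, that of Ogn held TATAAA on both strands in overlapping letters far upstream of the start, and that of Omd held none of the 5 patterns. No pattern was common to the genes that fell. GC content was 56.8% for Optc and 51.2% for Fmod, against 42% for Ogn, 38.4% for Omd and 40% for Ecm2.

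Gusb was checked first, as the gene that defines the disease. Its intensity was 190, 218 and 184 in dilated and 112 and 125 in not dilated MPS VII aortas, against 1094, 992 and 1172 in normal aortas (brightest probe). All MPS VII values of this probe lay far below the normal ones, while a second Gusb probe near background had 27.2 to 40.8 units in the 5 MPS VII and 35 to 45.8 in the normal aortas. The tissue label was set against 3 marker lists: all 10 smooth muscle, 13 adventitial fibroblast and 9 endothelial markers on the array were above background on at least 1 array. Between 45% and 45.2% of probes lay above background on each array.

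Optc, which encodes opticin, a collagen-binding protein best known from the vitreous of the eye, showed the largest change among the members. Its intensity was 137, 98 and 55.7 in dilated aortas and 118 and 184 in not dilated MPS VII aortas, against 887, 1132 and 625 in normal aortas. The 5 MPS VII values lay below the 3 normal ones, and the 2 MPS VII groups overlapped. The mean was 96.8 ± 40.4 (SD, n = 3) in dilated and 151 ± 46 (n = 2) in not dilated aortas, against 881 ± 254 (n = 3) in normal aortas. The log2 difference was -2.67 in dilated minus normal (SE 0.26, 95% interval -3.26 to -2.08, limma adjusted p = 0.000601) and -2.19 in not dilated minus normal (SE 0.29, limma adjusted p = 0.00789). Of 10040 genes, it ranked 4 by size of fall in the dilated and 5 in the not dilated aortas. The ratio of the mean intensities themselves, without the offset, was 0.11 and 0.171. The call in not dilated aorta ended without not dilated replicate 1 (log2 difference -1.96, limma adjusted p = 0.0534). Between the MPS VII groups the log2 difference was -0.47, with an interval of -1.13 to 0.19 (limma adjusted p = 0.697). Optc has 1 probe on the array, and its rank by brightness among the 25697 probes ran from 1990 to 9224 over the 8 mice.

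Ogn encodes osteoglycin, also called mimecan, which is made by cells of the vessel wall and binds collagen. It was among the brightest transcripts of normal aorta, and had 8331, 10032 and 4085 intensity units in dilated and 5900 and 7785 in not dilated MPS VII aortas, against 18319, 17450 and 18234 in normal aortas. No MPS VII value reached a normal one, and dilated replicate 3 had the lowest value. The mean was 7483 ± 3063 (SD, n = 3) in dilated and 6843 ± 1333 (n = 2) in not dilated aortas, against 18001 ± 479 (n = 3) in normal aortas. Its log2 difference was -1.36 in dilated minus normal (SE 0.29, 95% interval -2.01 to -0.7, limma adjusted p = 0.0136) and -1.4 in not dilated minus normal (SE 0.32, limma adjusted p = 0.0322). The levels of the 2 MPS VII groups differed by 0.04 on the log2 scale, with an interval of -0.69 to 0.78 (limma adjusted p = 0.982). The call in not dilated aorta ended without either not dilated replicate or any of the 3 normal replicates (limma adjusted p = 0.0629 to 0.181). Both dimmer Ogn probes also lay lower in MPS VII aorta when each probe was tested by itself. Probe 770441 averaged 64.2 in dilated and 73 in not dilated aortas, against 247 in normal aortas. Its log2 difference was -1.45 in dilated (limma adjusted p = 0.0169) and -1.25 in not dilated aorta (limma adjusted p = 0.0587). For probe 450537 the means were 36 and 37.7, against 119, and the log2 differences -0.97 in dilated (limma adjusted p = 0.006) and -0.94 in not dilated aorta (limma adjusted p = 0.0203).

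The chromosome 13 neighbours of Ogn moved the same way. Omd, osteomodulin, best known as a keratan sulphate proteoglycan of bone, had 79.3, 88.4 and 23 units in dilated and 53.4 and 78.7 in not dilated aortas, against 241, 228 and 335 in normal aortas. Its log2 difference was -1.52 (SE 0.25, limma adjusted p = 0.00464) in dilated and -1.45 (SE 0.28, limma adjusted p = 0.0199) in not dilated aorta. Ecm2, a class I relative, had 33.8, 23 and 5.06 units in dilated and 20.5 and 34 in not dilated aortas, against 82.5, 117 and 101 in normal aortas. Only 1 array of each MPS VII group measured Ecm2 above background, so its log2 differences, -1.1 in dilated (limma adjusted p = 0.00426) and -0.96 in not dilated aorta (limma adjusted p = 0.0224), lean on the offset. For both genes all 5 MPS VII values lay below all 3 normal ones, as did those of 19.6% of all genes. In not dilated aorta the Omd call ended without not dilated replicate 1, normal replicate 1 or normal replicate 3 (limma adjusted p = 0.0509 to 0.125) and with values floored at 16 (log2 difference -2.03, limma adjusted p = 0.0644). The Ecm2 call there ended without not dilated replicate 1, normal replicate 2 or normal replicate 3 (limma adjusted p = 0.0562 to 0.144). Aspn, which lies between Ecm2 and Omd and encodes a TGF-beta-binding protein without glycosaminoglycan chains, was not above background on any of the 8 arrays (5.06 to 11 in dilated, 4.92 and 11.3 in not dilated and -3.52 to 12.7 in normal aortas) and was not tested. The nearest tested genes outside this cluster, taken after the values were seen, were Ippk and Iars, and neither passed. Ippk had log2 differences of -0.12 and 0.02 (limma adjusted p = 0.597 and 0.934) and Iars -0.03 and -0.17 (limma adjusted p = 0.911 and 0.491) in dilated and not dilated aorta. Outside the other clusters, Atp2b4 next to Optc fell in dilated aorta (-0.44, limma adjusted p = 0.0274). Atp2b4 averaged 19.2 in dilated and 33.5 in not dilated aortas, against 44.1 in normal aortas. The dilated mean lay below the background bound, so this difference also leans on the offset. Btg1, the nearest tested gene before Dcn, rose in dilated aorta (0.66, limma adjusted p = 0.0175). Atp2b1, the nearest tested gene after Epyc, did not pass there (0.13, limma adjusted p = 0.511).

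**Figure D2:**
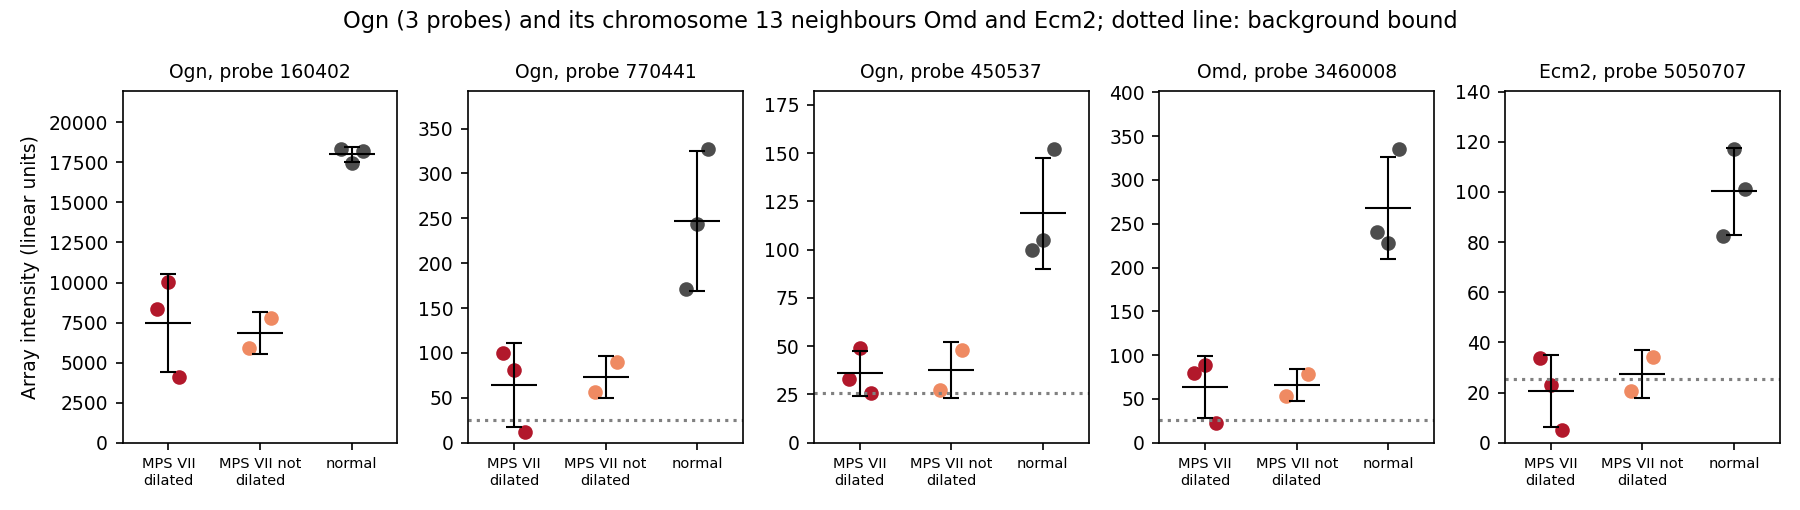
Intensity (linear array units) of the 3 Ogn probes and of Omd and Ecm2 in dilated MPS VII, not dilated MPS VII and normal aortas. Points are mice, bars are means with 1 SD and the dotted line is the background bound of 25.6. On each of the 5 probes every MPS VII point lies below every normal point, as is so for 19.6% of all genes.

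The chromosome 1 cluster moved in opposite directions. Fmod encodes fibromodulin, which binds collagen and steers its crosslinking by lysyl oxidase. It had 500, 276 and 371 units in dilated and 260 and 312 in not dilated MPS VII aortas, against 86.1, 266 and 76.3 in normal aortas. The dilated values lay above the normal ones, whereas normal replicate 2 lay above 1 of the 2 not dilated values. The mean was 382 ± 112 (SD, n = 3) in dilated and 286 ± 36.9 (n = 2) in not dilated aortas, against 143 ± 107 (n = 3) in normal aortas. The log2 difference was 1.26 in dilated minus normal (SE 0.34, 95% interval 0.51 to 2.02, limma adjusted p = 0.0293) and 0.93 in not dilated minus normal (SE 0.38, 95% interval 0.08 to 1.78, limma adjusted p = 0.134). The high normal value came from the only male of that group. Among males Fmod had 371 in the dilated and 312 in the not dilated aorta, against 266 in the normal aorta, and among females 500, 276 and 260 in MPS VII, against 86.1 and 76.3. The dilated and normal groups have the same make-up by sex, so sex as a covariate cannot change their difference. It stayed at 1.26, with a limma adjusted p of 0.0208, which does not show whether sex matters to Fmod. The call ended without dilated replicate 1, dilated replicate 3, normal replicate 1 or normal replicate 3 (log2 difference 1.03 to 1.27, limma adjusted p = 0.0654 to 0.103). Without normal replicate 2 the differences were 1.69 in dilated and 1.35 in not dilated aorta, and both passed (limma adjusted p = 0.00505 and 0.0333). Fmod's other probe was above background on 1 array, dilated replicate 1 (44.1), and was not tested. Prelp, between Optc and Fmod, had no call.

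**Figure D3:**
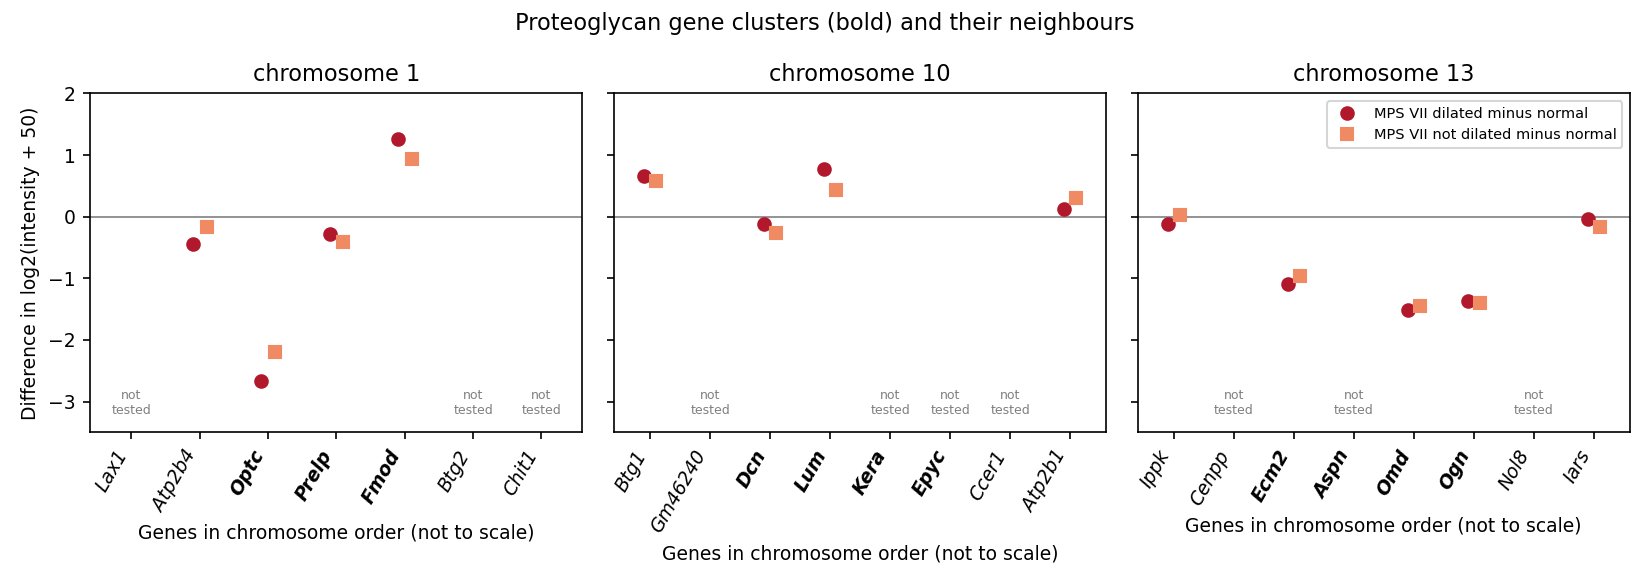
Difference in log2(intensity + 50) from normal aorta for genes in chromosome order, with family genes in bold and up to 2 protein-coding neighbours on each side. Circles are dilated and squares not dilated MPS VII aortas; Ecm2, Omd and Ogn lie between -1.52 and -0.96, while on chromosome 1 Optc lies at -2.67 and -2.19 and Fmod at 1.26 and 0.93.

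Lum, which encodes lumican and is required for regular collagen fibrils in the cornea, had 3108, 8039 and 2963 units in dilated and 2965 and 3788 in not dilated MPS VII aortas, against 2318, 2587 and 2460 in normal aortas. All 5 MPS VII values lay above the normal ones, and dilated replicate 2, the oldest mouse at 9.1 months, stood far above the rest. The log2 difference was 0.77 in dilated minus normal (SE 0.33, 95% interval 0.01 to 1.52) and did not pass after adjustment (limma adjusted p = 0.132). In not dilated minus normal it was 0.44 (SE 0.37, 95% interval -0.4 to 1.28, limma adjusted p = 0.445). Without dilated replicate 2 the first difference was 0.3 (limma adjusted p = 0.221), and with age as a covariate it was 0.29 (limma adjusted p = 0.446). Both settings bear on the same mouse, so for Lum its age and its other traits cannot be told apart. The next value is that of the first difference again. With array quality weights the dilated minus normal difference was 1.26 and passed (limma adjusted p = 0.0155).

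Bgn, Dcn and Prelp were among the brightest probes of the array and none of them passed. Biglycan's probe ranked between 7 and 14 of 25697 on every array. Bgn had 41928, 43649 and 40636 units in dilated and 41928 and 51237 in not dilated MPS VII aortas, against 39648, 42742 and 40636 in normal aortas. The groups overlapped. The log2 difference was 0.04 in dilated (95% interval -0.23 to 0.31, limma adjusted p = 0.844) and 0.18 in not dilated aorta (-0.12 to 0.48, limma adjusted p = 0.391). Because the arrays were brought to 1 distribution, values this high are set by rank, and the same value recurs on different arrays (40636 in dilated replicate 3 and normal replicate 3).

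Dcn, decorin, which wraps collagen fibrils and binds TGF-beta, had 20267, 23181 and 19770 units in dilated and 16467 and 21733 in not dilated MPS VII aortas, against 22473, 23060 and 23060 in normal aortas. Its log2 difference was -0.12 in dilated (95% interval -0.43 to 0.19, limma adjusted p = 0.546) and -0.27 in not dilated aorta (-0.62 to 0.07, limma adjusted p = 0.253). The second Dcn probe had means of 3716 and 3973, against 3490 in normal aortas, with differences of the other sign, 0.12 and 0.13 (limma adjusted p = 0.767 and 0.79). Prelp, a proteoglycan-like protein that ties basement membranes to collagen, had 25266, 20974 and 14640 units in dilated and 15665 and 20974 in not dilated aortas, against 24604, 24604 and 23181 in normal aortas. Its log2 difference was -0.28 in dilated (95% interval -0.74 to 0.17, limma adjusted p = 0.332) and -0.41 in not dilated aorta (-0.92 to 0.1, limma adjusted p = 0.245). In not dilated aorta both Dcn, on its brightest probe, and Prelp lay below the 3 normal values, while the dilated values overlapped them. On the second Dcn probe, not dilated replicate 2 had 5333, above the normal values of 3315, 4529 and 2625.

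**Figure D4:**
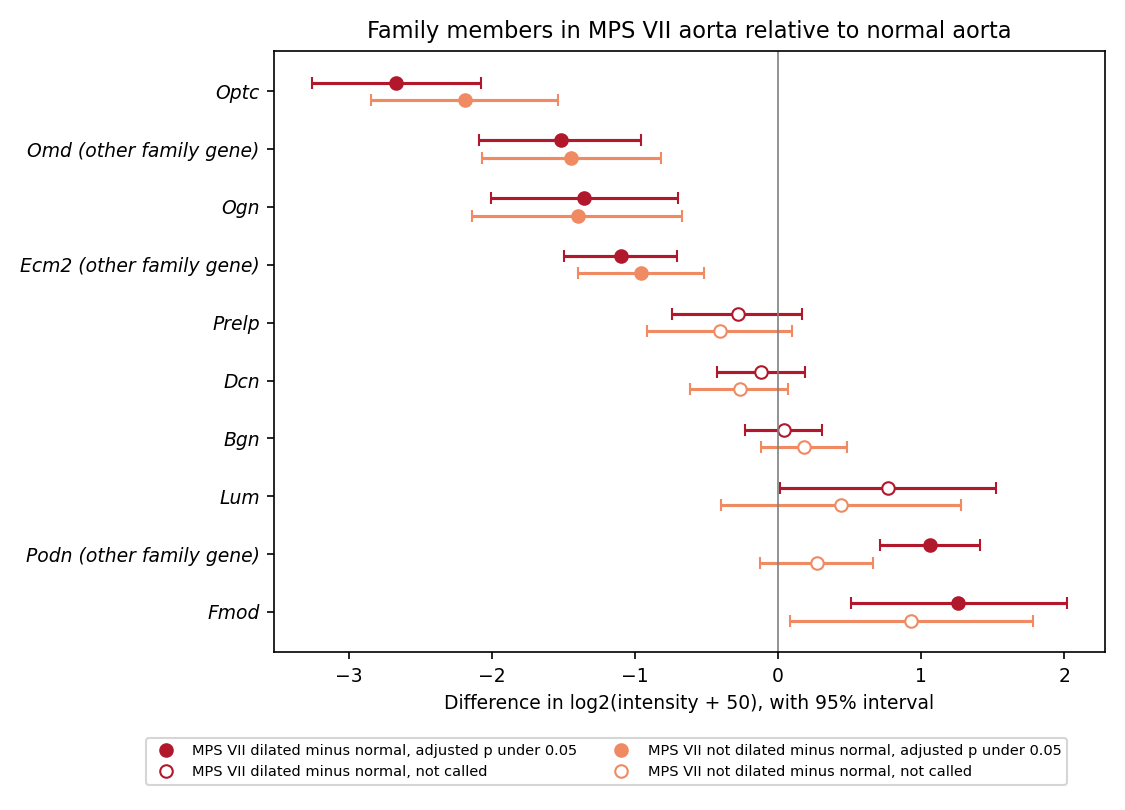
Differences in log2(intensity + 50) from normal aorta with 95% intervals for the 7 tested members and 3 further family genes, dilated above not dilated within each gene. Filled points have a limma adjusted p under 0.05; the intervals of Bgn stay between -0.23 and 0.48 and those of Dcn between -0.62 and 0.19.

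Counting separation in place of calls, 2 members (Optc and Ogn) lay wholly below normal in dilated aorta, where 24.6% of all genes did, and 2 (Lum and Fmod) lay wholly above, where 17.9% did. In not dilated aorta 4 members lay wholly below (30.5% of all genes) and 1 wholly above (20.2% of all genes), which makes 5 without overlap where 50.7% of all genes had none. These counts use the brightest probe of each gene, and in not dilated aorta the second Dcn probe overlapped normal. Taking all 5 MPS VII mice against the 3 normal ones, 2 members lay wholly below (19.6% of all genes) and 1, Lum, wholly above (12.5% of all genes; 32.1% in either direction). In that comparison limma called Optc (-2.43, SE 0.23, limma adjusted p = 0.000717) and Ogn (-1.38, SE 0.26, limma adjusted p = 0.00777) lower and Fmod (1.1, SE 0.3, limma adjusted p = 0.0308) higher, where 24.4% of all genes were called, 13.3% lower and 11.1% higher. The Fmod call ended without either not dilated replicate, normal replicate 1 or normal replicate 3 (limma adjusted p = 0.0595 to 0.126). A two-sided exact permutation test of 5 mice against 3 gave p = 0.0357, the smallest it can give, for Optc, Ogn and Lum, 0.0714 for Fmod, 0.143 for Dcn and Prelp and 0.25 for Bgn, all unadjusted.

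Of 10 further genes of the family, 8 had a probe and 3 could be tested. Besides Omd and Ecm2 this was Podn, podocan, a family gene outside the 3 classic classes that restrains smooth muscle growth in mice. Podn had 373, 252 and 355 units in dilated and 176 and 155 in not dilated MPS VII aortas, against 115, 123 and 150 in normal aortas. Each of the 3 groups was separate from the others. Of all genes, 17.9% lay wholly higher in dilated and 20.2% in not dilated than in normal aorta. The share wholly higher in dilated than in not dilated aorta was 13.7%. It rose in dilated aorta (log2 difference 1.06, SE 0.16, limma adjusted p = 0.0032) and did not pass in not dilated aorta (0.27, SE 0.17, limma adjusted p = 0.325). Dilated minus not dilated was 0.79 (95% interval 0.4 to 1.19, limma adjusted p = 0.261). Kera, Epyc, Nyx and Podnl1 were not above background on any array, and Chad was so on 1 array.

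Across the 8 arrays, the log2 values of Ogn went with those of Omd (r = 0.977), Ecm2 (0.944) and Optc (0.911), and Optc with Ecm2 (0.974). Dcn and Bgn had r = 0.106, and Fmod against Ogn -0.71. These correlations describe 8 arrays that fall into disease groups and share 1 normalization. Of all 10040 genes, the 3 with the highest r were Ibsp (0.995, with means of 9.4 in dilated and 15.7 in not dilated aortas, below the background bound of 25.6, against 39.2 in normal aortas), Maf1 (0.992) and Scube3 (0.99) for Optc, and Chmp1b (0.993), Lrfn3 (0.987) and Gnb4 (0.986) for Ogn. Scube3, a secreted glycoprotein, averaged 179 in dilated and 236 in not dilated aortas, against 879 in normal aortas. For Fmod they were Arfgap2 (0.984), Wfdc2 (0.954) and Hpse (0.95), and for Lum Cdk2 (0.95), Ncstn (0.95) and Nid2 (0.949). Hpse, heparanase, averaged 43.9 in dilated and 35.1 in not dilated aortas, against 5.97 in normal aortas, below the background bound. Prelp was most like Meak7, Slu7 and Cercam (0.989, 0.98 and 0.979), Dcn most like Irf2, Skp2 and Slc35a1 (0.962, 0.959 and 0.951), and Bgn most like Triap1, the unnamed probe 990376 and Dntt (0.953, 0.946 and 0.938). Meak7 averaged 22.9 in dilated and 19.8 in not dilated aortas, below the background bound, against 33.8 in normal aortas. The mean of Dntt exceeded that bound only in not dilated aorta (36.5, against 17.6 in dilated and 12.1 in normal aortas).

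The cells that express these genes may also differ in number between the groups, and in whole tissue fewer cells and less RNA per cell cannot be told apart. Of all genes, 10.4% fell and 9.82% rose in dilated aorta, and 5.17% fell and 4.84% rose in not dilated aorta. Of 13 adventitial fibroblast markers, 6 fell and 0 rose in dilated aorta, and 6 fell and 0 rose in not dilated aorta. Those with the smallest adjusted p in dilated aorta were Clec3b (log2 difference -1.37), Mfap5 (-1.12), Tnxb (-1.37) and Pi16 (-1.48). The 7 others did not pass, with log2 differences in dilated aorta between -0.39 for Pdgfra and 0.89 for Ly6c1. The number lower in dilated aorta was 3 without dilated replicate 2 or normal replicate 1. In not dilated aorta it was 1 without not dilated replicate 1, 2 without normal replicate 3 and 3 without normal replicate 1 or normal replicate 2. The Pi16 call in dilated aorta ended without dilated replicate 2, normal replicate 1 or normal replicate 3. The summed fibroblast intensity was 14424 to 20206 in dilated and 13636 to 18363 in not dilated aortas, against 26857 to 28210 in normal aortas.

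Of 10 smooth muscle markers, 9 fell in dilated aorta (10.4% of all genes) and 2 in not dilated aorta (5.17% of all genes). Those with the smallest adjusted p in dilated aorta were Cald1 (log2 difference -0.96), Cnn1 (-1.17), Myocd (-1.74) and Des (-1.71). Acta2, the brightest of the 10, did not pass in dilated aorta (-0.34, limma adjusted p = 0.246). The summed intensity of all 10 markers was 47185 to 83894 in dilated and 66980 to 88430 in not dilated aortas, against 92720 to 117264 in normal aortas. The number lower in dilated aorta was 5 without normal replicate 2. In not dilated aorta it was 4 without dilated replicate 1, 5 without dilated replicate 3, and 1 without not dilated replicate 1 or normal replicate 3. Dilated replicate 3, lowest of the 8 arrays for Ogn and Optc, had the lowest smooth muscle sum (47185) and the highest macrophage sum (23403) of the 8, and the highest fibroblast sum of the 5 MPS VII aortas (20206). The part of cell makeup in the proteoglycan values was not tested.

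Of all genes, 9.82% rose in dilated and 4.84% in not dilated aorta, which is the measure for the marker counts that follow. Of 10 macrophage markers, 10 rose in dilated and 6 in not dilated aorta, and their sums were 16866 to 23403 and 6331 to 10578, against 2104 to 3976 in normal aortas. Of 8 tested adipocyte markers, 5 rose in dilated and 4 in not dilated aorta, with sums of 23375 to 32881 and 22098 to 34619, against 12905 to 17044 in normal aortas. Of 9 endothelial markers, 4 rose in dilated and 3 in not dilated aorta, with sums of 4811 to 10500 and 5702 to 6817, against 3377 to 4838 in normal aortas. Both endothelial counts include Tie1, which was above background on every MPS VII array and on no normal array. Tie1 entered the test only through the groups where it is high, so its calls add nothing to these counts. The counts in not dilated aorta depended on single mice. That of macrophage markers was 3 without not dilated replicate 1, 2 without not dilated replicate 2 or normal replicate 1, and 1 without normal replicate 3. That of adipocyte markers was 2 without dilated replicate 2 or normal replicate 1, and 1 without not dilated replicate 1, normal replicate 2 or normal replicate 3. That of endothelial markers was 1 without not dilated replicate 2 and 0 without not dilated replicate 1 or any 1 normal replicate.

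Of 10 chondrocyte and valve markers, 6 were never above background (Matn1, Matn3, Hapln1, Cnmd, Col9a1 and Col11a2) and 4 were tested. Comp, a cartilage matrix protein that binds collagen, averaged 640 ± 436 in dilated and 180 ± 28.3 in not dilated aortas, against 154 ± 20.1 in normal aortas (SD, n = 3, 2 and 3). It rose in dilated aorta (log2 difference 1.59, limma adjusted p = 0.0142), a call that ended without normal replicate 3 (limma adjusted p = 0.055). Acan, which encodes the large proteoglycan aggrecan, averaged 47.5 in dilated and 48.3 in not dilated aortas, against 181 in normal aortas. It fell in both (log2 differences -1.22 and -1.21, limma adjusted p = 0.00349 and 0.0142), in not dilated aorta not without not dilated replicate 1 or normal replicate 3. Pigment and ocular markers had 5 of 7 never above background (Dct, Tyrp1, Tyr, Rpe65 and Crygs). The 2 tested, Pmel and Mitf, were called in neither MPS VII group. Pmel averaged 13.8 in dilated and 12 in not dilated aortas, against 32.5 in normal aortas, and Mitf 24.1 and 19.8, against 38.6. All MPS VII means lay below the background bound. Pmel exceeded it on no MPS VII array, so it entered the test only through the group where it is high. Summed intensity was 53.5 to 68.9 and 37.6 to 57.9, against 59.5 to 127 in normal aortas. Of 5 tested cardiomyocyte markers, 0 were called in dilated aorta (20.2% of all genes) and 0 in not dilated aorta (10% of all genes). Cardiomyocyte marker sums were 743 to 1441 and 799 to 1063, against 760 to 800 in normal aortas. Most of each sum is Myl4, with means of 875 in dilated and 750 in not dilated aortas, against 691 in normal aortas. Group means of Myh6, Myl7, Actc1 and Nppa ran from 5.85 to 66.9, and Tnni3 and Ryr2 were never above background.

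The enzymes that build and remove the proteoglycans' sugar chains changed gene by gene. Over all genes, 9.82% were higher and 10.4% lower in dilated aorta, and 4.84% higher and 5.17% lower in not dilated aorta, which is the measure for the counts of each list. Of 22 genes for the chain linker and for chondroitin and dermatan sulphate synthesis, 11 were tested, with 2 higher and 2 lower in dilated aorta (median log2 difference -0.16) and 0 higher and 1 lower in not dilated aorta (median -0.22). Chst3 and Chst15, sulphotransferases of chondroitin sulphate, went opposite ways (-1.25, limma adjusted p = 0.0162, and 0.81, limma adjusted p = 0.0334). Csgalnact1, which starts chondroitin chains, fell by 0.74 (limma adjusted p = 0.019) and Xylt2, a xylosyltransferase that starts the linker, rose by 0.52 (limma adjusted p = 0.0174). Among 3 tested keratan sulphate genes, Chst1, the galactose 6-O-sulphotransferase, averaged 1140 ± 712 in dilated and 387 ± 100 in not dilated aortas (n = 3 and 2), against 207 ± 41 in normal aortas (n = 3). That is a log2 difference of 2.07 in dilated aorta (SE 0.35, limma adjusted p = 0.00515). Chst2, a sulphotransferase acting on N-acetylglucosamine, fell by 0.82 (limma adjusted p = 0.0118). Of 8 tested genes for chain breakdown, Gusb and the hyaluronidase Hyal1 (-1.83, limma adjusted p = 0.000837) fell and Hexa, a subunit of beta-hexosaminidase, rose (1.06, limma adjusted p = 0.00165). For the 11 chondroitin and dermatan sulphate genes, the counts lie near the shares over all genes. Without 1 library, the calls that ended were those of Chst15 (dilated replicate 2 or any normal replicate), Csgalnact1 (dilated replicate 2, normal replicate 2 or normal replicate 3), Chst3 (normal replicate 2) and Xylt2 (normal replicate 1).

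**Figure D5:**
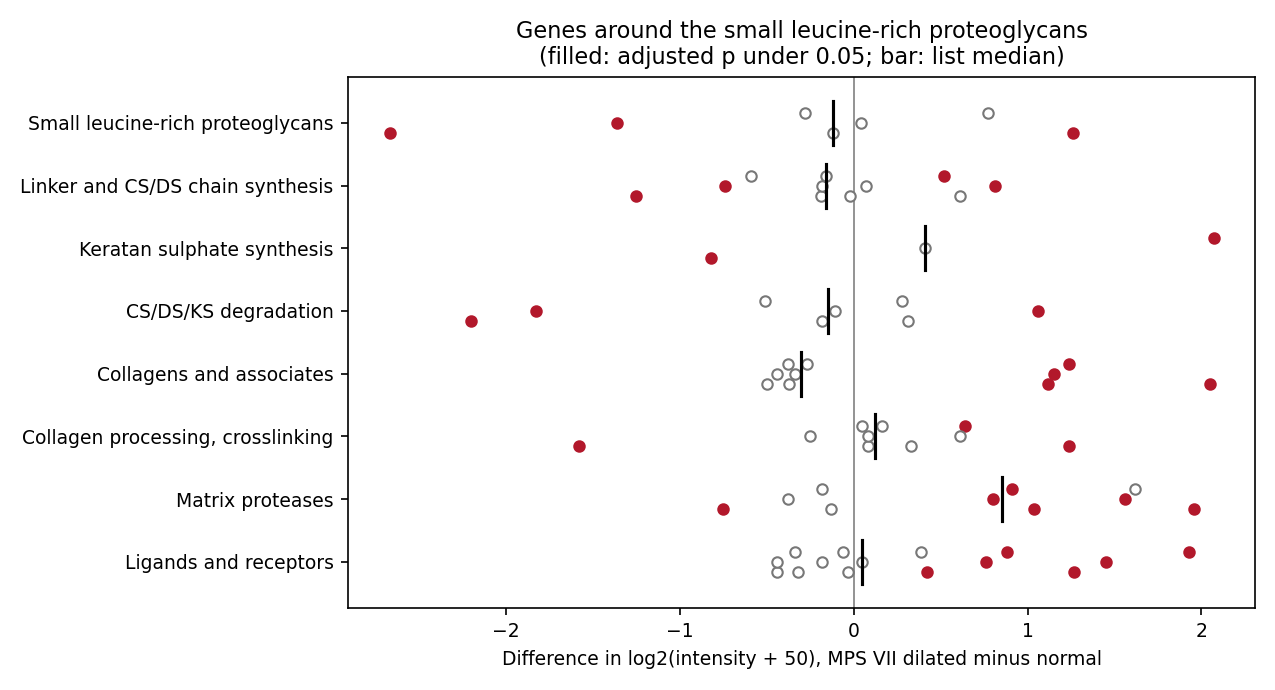
Difference in log2(intensity + 50), dilated MPS VII minus normal aorta, for each tested gene of 8 lists (CS, DS and KS are chondroitin, dermatan and keratan sulphate). Each point is a gene, filled where the limma adjusted p is under 0.05, and the bar is the list median; the medians run from -0.31 for collagens and associates to 0.86 for matrix proteases.

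Binding partners and proteases of the family were compared in the same way. The shares over all genes were again 9.82% higher and 10.4% lower in dilated and 4.84% and 5.17% in not dilated aorta. Of 10 tested collagens and associated matrix genes, 4 rose and 0 fell in dilated aorta and 0 moved in not dilated aorta (medians -0.31 and -0.25). Those that rose were Ccn4, a matricellular Wnt target (2.05, limma adjusted p = 0.000298), Col1a1, a chain of collagen I (1.24, limma adjusted p = 0.0086), Eln, elastin (1.15, limma adjusted p = 0.0235), and Thbs1, thrombospondin. Thbs1 exceeded background on the 3 dilated arrays and on no other, so it entered the test only through the group where it is high and its call adds nothing to the count. Its level in dilated aorta was a bound of at least 1.46-fold over normal (limma adjusted p = 0.00441). The other chain of collagen I, Col1a2, had a log2 difference of -0.5 in dilated aorta (limma adjusted p = 0.0587), and Col3a1, Col5a1, Col6a1, Col6a2 and Col14a1 lay between -0.44 and -0.27 without passing. Of 10 genes for collagen processing and crosslinking, 2 rose and 1 fell in dilated aorta: the lysyl oxidase genes Lox (1.24, limma adjusted p = 0.0071) and Loxl2 (0.64, limma adjusted p = 0.013) and the procollagen proteinase enhancer Pcolce2 (-1.58, limma adjusted p = 0.00064). Loxl2 averaged 62.8 in dilated and 21.5 in not dilated aortas, against 22.2 in normal aortas, where 1 of 3 arrays was above background. Its log2 difference therefore leaned on the treatment of low values and ran from 0.41 with an offset of 100 to 1.5 with values floored at 16. In not dilated aorta 0 rose and 2 fell, and 0 fell without not dilated replicate 1. Of 10 matrix proteases that can cleave matrix proteoglycans, 5 rose and 1 fell in dilated aorta (median 0.86), and 0 passed in not dilated aorta. The number that rose was 3 without dilated replicate 2 or dilated replicate 3 and 2 without normal replicate 1. Mmp3 averaged 3647 ± 444 in dilated and 1714 ± 721 in not dilated aortas, against 943 ± 372 in normal aortas, a difference of 1.96 in dilated aorta (limma adjusted p = 0.00323). Mmp2 rose by 1.04 (limma adjusted p = 0.00448), Adamts1 fell by 0.75 (limma adjusted p = 0.0233), and Mmp12 in dilated aorta was at a bound of at least 1.84-fold over normal (limma adjusted p = 0.0134). Mmp12 was above background on all 5 MPS VII arrays and on no normal array, so it too entered the test only through the groups where it is high.

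Of 15 tested ligands and receptors, 6 rose and 0 fell in dilated aorta (median 0.05), where 9.82% of all genes rose, and 1 rose in not dilated aorta, where 4.84% did, so that 1 of 15 lies near the share over all genes. Soluble biglycan is known to signal through the toll-like receptors Tlr2 and Tlr4 with Cd14 and through P2X receptors. P2rx4 averaged 496 ± 8.95 in dilated and 382 ± 8.45 in not dilated aortas, against 150 ± 15.2 in normal aortas (log2 differences 1.45 and 1.11, limma adjusted p = 0.000256 and 0.00388). Cd14 rose by 1.93 (limma adjusted p = 0.00392) and Tlr2 by 0.88 (limma adjusted p = 0.014) in dilated aorta, while Tlr4, named after its value was seen, had a difference of -0.03 (limma adjusted p = 0.867). Fst, follistatin, rose by 1.27 (limma adjusted p = 0.00476). Macrophage marker sums, given above, were also higher in both MPS VII groups. The part of macrophages in the P2rx4, Cd14, Tlr2 and protease values was not tested. Without 1 library, calls among the binding partners, proteases and receptors that ended were those of Eln (any 1 normal replicate), Adamts1 (dilated replicate 1, dilated replicate 3 or any normal replicate), and Loxl2, Mmp12 and Tlr2 (normal replicate 1). With age as a covariate the calls of Eln (1.04, limma adjusted p = 0.0622) and Adamts1 (-0.73, limma adjusted p = 0.0518) also ended, and the dilated group includes the oldest mouse.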

How the data were processed

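The values analysed are the deposited array intensities of 25697 probes on 8 arrays, on a linear scale. Per the labels' protocols, biotinylated cRNA was made from total RNA for Illumina arrays, and the submitters' processing notes name GenomeStudio and Partek with no role; for the genome build, nothing was given in the sources used here. The deposited intensity values show that the authors had subtracted a background (27.8% to 28% of values are below 0) and given all arrays 1 distribution (sorted values differ by at most 0.94), so a change in total RNA cannot be seen. A second table, before normalization, was not used: 16 of its columns match no single sample, so the planned neqc alternative was not run.

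An SD of 11 for noise came from the part of the distribution below 0, and its one-sided 0.01 bound is 25.6. The 12913 probes above it on at least 2 arrays were kept, and each gene was represented by its brightest probe (10040 genes, 1085 of them unnamed probes). The platform annotation gives 1 symbol for 23141 probes and none for 2556; all 23141 matched GRCm38.p6 by Entrez identifier. Means per group were fitted to log2(intensity + 50) with limma 3.58.1 in R 4.3.3 (5 residual and 4.05 prior degrees of freedom), with Benjamini-Hochberg adjustment over all 10040 genes; the number of arrays limits the precision. An exact test of 3 against 3 mice cannot go below p = 0.1, nor one of 3 against 2 below 0.2. "At least" folds set the brighter group against the higher of 25.6 and the measured value, with the offset of 50. Promoter windows are RefSeq's; no protein table was used here, so the planned protein comparison was not made. The script was tested on simulated data.

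Members and lists were chosen with earlier results of these data known. Named were all members and their probes, tested family genes, up to 4 called genes per list (smallest adjusted p in dilated minus normal) and the 3 genes of highest r per member. Same-numbered mice were not treated as pairs: the labels state no link, and 2 of 7 same-numbered pairs had deviations correlated over 0.1. The closing section covers 21 alternatives.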

Additional observations from a re-analysis of the deposited data

How the results depend on the processing

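The falls of Optc and Ogn in dilated minus normal and in all MPS VII minus normal kept their sign and passed under all 21 alternatives. Leaving out 1 mouse gave 1089 to 1950 changed genes in dilated minus normal (2032 as reported, lowest without normal replicate 1), 81 to 1538 in not dilated minus normal (1005, lowest without not dilated replicate 1 and highest without dilated replicate 3), 0 to 3 in dilated minus not dilated (0, with 910 at an unadjusted p under 0.05) and 1176 to 2409 in all MPS VII minus normal (2446, lowest without normal replicate 3). The number of members higher was then 0 to 1 in dilated, not dilated and all MPS VII minus normal, and that of members lower in not dilated minus normal 0 to 2. With array quality weights 3324 genes and 2 higher members passed in dilated minus normal. An offset of 16 or a floor of 16 left 1 lower member in not dilated aorta. Dilated minus not dilated gave 3 changed genes with an offset of 100, 4 with no filter, 19 with sex as a covariate and 3 with array quality weights. Cyclic loess split the calls into 1119 higher and 846 lower in dilated minus normal (986 and 1046 as reported), 528 and 376 in not dilated minus normal (486 and 519) and 1256 and 998 in all MPS VII minus normal (1115 and 1331), so the shares of genes higher and lower depend on the scaling. The replicate block left 0 members higher in all MPS VII minus normal (Fmod 1.04, limma adjusted p = 0.054), and the numbers are not taken to pair the mice (correlations of deviations -0.193 to 0.333). Signs turned for differences that had not passed. Between the MPS VII groups Ogn was -0.06 with the mean of its probes, -0.47 with age and -0.01 with sex as a covariate, Lum was -0.21 and Prelp -0.11 with age, and Omd 0.14 with array weights; Bgn in dilated minus normal was -0.03 with age. Between the MPS VII groups, leaving out 1 mouse gave -0.21 to 0.43 for Ogn, -0.08 to 0.34 for Prelp, -0.14 to 0.57 for Lum, -0.05 to 0.35 for Dcn, -0.25 to 0.21 for Omd and -0.28 to 0.02 for Ecm2. The cause of these changes was not tested. Intensities near 25.6 limit Ecm2, Omd and the dim Ogn probes.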
